A study of Mus musculus with 9 samples.

Results

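The 9 transcripts described here encode interferon regulatory factors (Irf1, Irf2, Irf3, Irf5, Irf7, Irf8 and Irf9) and signal transducers and activators of transcription (Stat2 and Stat3). They were chosen by symbol from 55367 symbols counted in every library, and other IRF and STAT genes were not analysed here. Monocytes of adult mice were kept for 4 h with platelets of P7 mice, with platelets of adult mice or with a control buffer, then washed, and their polyadenylated RNA was sequenced. Each group has 3 libraries, and all 3 groups share the adult monocytes and the time in culture. P7 is the usual short form of postnatal day 7, and the library names call this group neo. The sources used here give no strain, genotype or sex, and do not say how the monocytes and platelets were prepared. Nothing there says that replicates came from separate cultures or animals. The p-values therefore reflect the spread among these libraries alone, which may be technical.

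Interferon regulatory factors share a DNA-binding domain that recognises GAAA repeats, and they turn genes of antiviral defence on or off. IRF3, IRF5 and IRF7 are held latent in the cytoplasm until kinases downstream of nucleic acid sensors and Toll-like receptors phosphorylate them. Type I interferon acts through Janus kinases to bring STAT2 and IRF9 into the complex ISGF3, which binds the interferon-stimulated response element (ISRE). IRF1 and IRF2 bind the same kind of site, where IRF2 often opposes IRF1. IRF8 guides the development of monocytes and dendritic cells, and STAT3 carries signals of IL-6 and IL-10. Much of this control acts on the proteins, which mRNA counts do not measure.

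To show what sequence lies at the start of these genes, windows from 250 bases before to 50 bases after each annotated start (RefSeq, GRCm38.p6) were searched on both strands. All 9 genes matched the table, with 12 windows. The core of the ISRE, taken as GAAA, any 2 bases and GAAA again, occurred in 2 of the 12 windows and in 3.44% of all 32851 windows. The STAT-type element (GAS), TTCNNNGAA, occurred in 3 of the 12 and in 8.3% of all. A narrower form of it, TTCCNGGAA, was in 0 of the 12 and in 1.15% of all, and no ISRE match overlapped a GAS match. The windows of Stat2, Irf2 and Irf1 are printed as those with a match in a factor of interferon signalling, and that of Irf7 as the gene with the largest rise. Capitals mark the matched letters. The Stat2 window is chr10:128270248-128270547 on the plus strand, with an ISRE core in reverse orientation beginning 222 bases before the start site. The Irf2 window is chr8:46739495-46739794 on the plus strand, with an ISRE core 241 bases and a GAS match 224 bases before the start site. The Irf1 window is chr11:53769764-53770063 on the plus strand, with a GAS match 90 bases before the start site. The Irf7 window is chr7:141266375-141266674 on the minus strand, and held no match.
Stat2: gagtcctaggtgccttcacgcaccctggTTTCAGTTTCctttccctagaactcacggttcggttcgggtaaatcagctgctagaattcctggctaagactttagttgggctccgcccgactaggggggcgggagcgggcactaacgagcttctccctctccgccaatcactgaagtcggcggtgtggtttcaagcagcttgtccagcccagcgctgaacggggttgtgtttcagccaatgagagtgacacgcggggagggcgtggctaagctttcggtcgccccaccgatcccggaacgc
Irf2: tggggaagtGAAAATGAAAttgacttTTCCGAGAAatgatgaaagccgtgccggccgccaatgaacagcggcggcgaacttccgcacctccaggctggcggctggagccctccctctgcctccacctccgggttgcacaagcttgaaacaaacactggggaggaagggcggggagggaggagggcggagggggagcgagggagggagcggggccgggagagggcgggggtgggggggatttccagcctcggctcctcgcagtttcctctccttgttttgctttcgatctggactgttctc
Irf1: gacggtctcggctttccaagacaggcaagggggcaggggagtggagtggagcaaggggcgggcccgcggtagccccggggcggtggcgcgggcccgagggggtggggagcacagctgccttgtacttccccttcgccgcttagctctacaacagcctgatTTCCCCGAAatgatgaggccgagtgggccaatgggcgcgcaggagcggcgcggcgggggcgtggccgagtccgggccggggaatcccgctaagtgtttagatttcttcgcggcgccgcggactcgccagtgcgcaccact
Irf7: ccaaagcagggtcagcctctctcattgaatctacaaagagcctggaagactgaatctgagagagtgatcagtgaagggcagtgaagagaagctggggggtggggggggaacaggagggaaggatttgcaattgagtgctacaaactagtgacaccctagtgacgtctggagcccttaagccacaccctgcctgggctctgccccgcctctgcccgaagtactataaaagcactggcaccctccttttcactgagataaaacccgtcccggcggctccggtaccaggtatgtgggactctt
A match is a run of letters, not a measured binding site. Irf8 held a pair of GAS matches, TTCTCGGAA and TTCAGAGAA, which begin 171 and 153 bases before the start site. Among the genes with a match, Stat2 and Irf1 rose with P7 platelets, Irf2 fell slightly and Irf8 did not pass the test. The windows of Irf3, Irf5, Irf9 and Stat3 held no match either, and these genes differ in response as described below.

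Library totals ran from 29687341 to 35333463 counts with P7 platelets, from 30974956 to 34394579 with adult platelets and from 35314701 to 37065564 in control. All 10 monocyte markers had counts in every library and together made up 2.47 to 2.98% of counts with P7 platelets, 2.68 to 3.12% with adult platelets and 2.48 to 2.74% in control. Lyz2 is the largest part of that sum, and single markers moved in both directions. Per 1000000 counts, Ccr2 had 1364 to 1899 with P7 platelets and 2388 to 2909 in control, and Cx3cr1 had 879 to 933 with P7 platelets and 536 to 589 in control. The 5 erythroid markers (globins and Alas2) made up 4.36 to 5.50% with P7 platelets, 0.0481 to 0.180% with adult platelets and 0.000881 to 0.00117% in control. The 13 platelet markers made up 0.121 to 0.142% with P7 platelets, 0.0737 to 0.136% with adult platelets and 0.000753 to 0.00151% in control. The erythroid share separated all 3 groups, and the platelet share overlapped between both kinds of platelets (exact permutation test, two-sided, p = 0.5). Against control each share gave p = 0.1 by the same exact test, the smallest that 3 against 3 libraries allow. The part of these other transcripts in the results below was not tested. Removing the platelet, erythroid and mitochondrial transcripts before the fit left the number of the 9 genes called in each comparison as it was. That step leaves the counts of the 9 genes unchanged, so it cannot show whether some of their reads came from platelets or red cells. In bulk RNA, fewer cells of a type and less RNA per cell cannot be told apart. Igkc, an immunoglobulin transcript, stood at 410 to 772 unscaled CPM (counts per 1000000 counts) in 4 libraries (replicate 1 of each group and adult replicate 3), against 123 to 172 in the other 5, and calls that change without those 4 are named where they occur.

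With P7 platelets the interferon-response factors Irf7, Stat2, Irf9 and Irf1 stood at 2.05 to 5.65 times their control level, Irf5 was modestly higher, and Stat3 and Irf2 were lower. Of the 9 genes, 5 were called higher and 2 lower at an adjusted p below 0.05 (edgeR quasi-likelihood test, Benjamini-Hochberg over the 13707 genes tested), and Irf3 and Irf8 were not called. In this comparison 59.2% of all tested genes were called, 29.9% higher and 29.3% lower, so the count of calls alone does not set the 9 apart. At least 2-fold higher were 4 of the 9, against 9.31% of all tested genes. The median log2 fold change was 0.45 over the 9 and -0.01 over all tested genes. The libraries of P7 platelets and control did not overlap for any of the 9, with 7 above control and 2 below, against 69.1% of all tested genes (34.5% above, 34.7% below). Upper-quartile scaling split the calls over all genes into 3279 higher and 5012 lower, where the TMM scaling used throughout gave 4097 and 4014.

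With adult platelets only Irf5 was called against control, higher, where 26.4% of all tested genes were called, 14.3% higher and 12% lower. The libraries did not overlap for 5 of the 9, Irf5 above control and Irf1, Irf7, Stat2 and Stat3 below it, against 42.7% of all tested genes (21.8% above, 20.9% below). The median log2 fold change over the 9 was -0.05. Between both kinds of platelets, 5 of the 9 were higher with P7 platelets and 0 lower, where 39.6% of all tested genes were called (19.7% higher, 19.8% lower). Under upper-quartile scaling 4 of the 9 were higher and 1 lower. Over all genes, 2106 were then higher and 3556 lower in place of 2706 and 2718. With the TMM scaling, 4 of the 9 were at least 2-fold higher, against 5.51% of all tested genes. Libraries did not overlap for 6 of the 9, with 5 higher with P7 platelets and Irf2 lower, against 49% of all tested genes (24.2% higher, 24.8% lower). The median log2 fold change was 0.23. The comparisons share libraries, so they are not independent of each other.

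**Figure D1:**
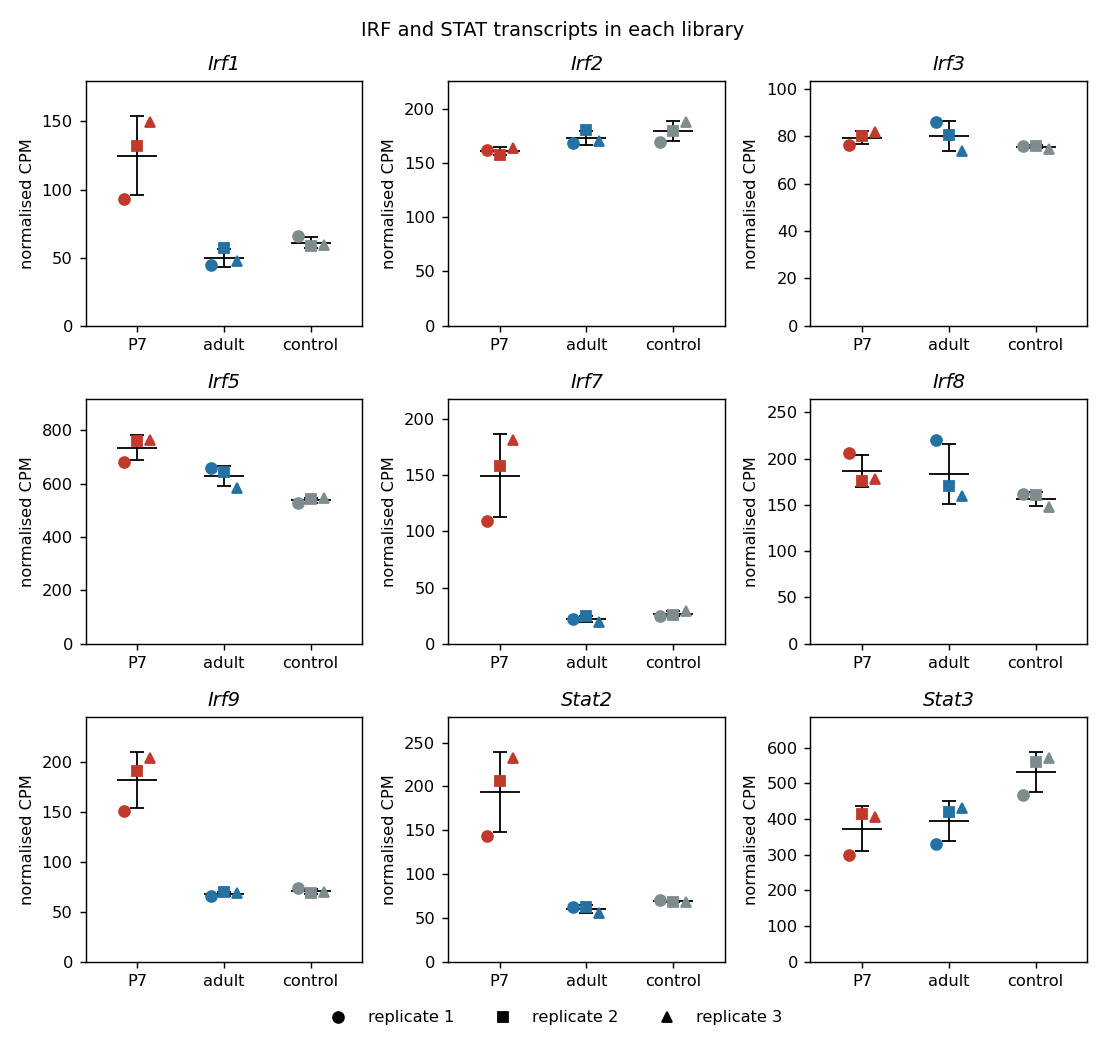
Normalised CPM (vertical axes, each panel on its own linear scale) of the 9 genes in each library, with P7 platelets left, adult platelets in the middle and control right; symbols are libraries by replicate and lines are means with SD (n = 3 each). Irf1, Irf7, Irf9 and Stat2 are higher in every P7 library than in any other library, and Irf3 barely differs, with means between 75.6 and 80.1 CPM.

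IRF9 and STAT2, the parts of ISGF3 considered here, moved alike. Irf9 (chromosome 14, 55603571 to 55610030, plus strand, GRCm38) had 151, 191 and 204 normalised CPM in the 3 P7 platelet libraries, 65.7, 69.5 and 68.5 with adult platelets, and 73.6, 68.4 and 69.3 in control. All P7 libraries stood above all others, while adult and control libraries overlapped. The log2 fold change with P7 platelets was 1.37 ± 0.10 against control (SE, adjusted p = 5.61e-06, edgeR) and 1.42 ± 0.10 against adult platelets (adjusted p = 2.23e-05). With adult platelets it was -0.05 ± 0.10 against control (adjusted p = 0.729), with a 95% interval from -0.28 to 0.17. Irf9 shares 123 bases of exon (2.28% of its exon length) with Rnf31 on the same strand, where reads could belong to either gene.

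Stat2 (chromosome 10, 128270559 to 128292849, plus strand), which carries the transactivating part of ISGF3, had 143, 206 and 233 CPM with P7 platelets, 63.0, 62.4 and 55.4 with adult platelets, and 69.9, 68.2 and 68.4 in control. P7 libraries stood above every control library and adult libraries below every control library. Its log2 fold change was 1.49 ± 0.15 for P7 platelets against control (adjusted p = 3.17e-05, edgeR), a 2.81-fold difference, and 1.69 ± 0.15 against adult platelets (adjusted p = 7.73e-05). The lower level with adult platelets did not pass the test (-0.19 ± 0.15, adjusted p = 0.373), and was -0.13 (0.193) without the 4 libraries high in Igkc.

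IRF7 is the factor that amplifies type I interferon production and is itself induced by interferon, whereas IRF3 is made constitutively and acts first. Irf7 (chromosome 7, 141262706 to 141266481, minus strand) had 109, 158 and 182 CPM with P7 platelets, 22.1, 24.3 and 19.3 with adult platelets, and 24.9, 25.5 and 29.0 in control. The lowest P7 library stood far above the highest of the other 6, and each adult library lay below each control library. The log2 fold change was 2.50 ± 0.17 against control (SE, adjusted p = 4.47e-06, edgeR), or 5.65-fold, and 469 tested genes (3.42%) had a higher one. Against adult platelets it was 2.77 ± 0.18 (adjusted p = 1.45e-05), or 6.83-fold, with 144 genes (1.05%) higher. Adult platelets against control gave -0.27 ± 0.17 (adjusted p = 0.278), and -0.16 (0.283) without the 4 libraries high in Igkc. Irf7 is also abundant in plasmacytoid dendritic cells, and the 6 markers of those cells made up 0.000822 to 0.00116% of counts with P7 platelets, 0.000881 to 0.00250% with adult platelets and 0.000891 to 0.00132% in control. All 6 had counts in each group, with Klk1 at 0 in 2 of 3 libraries of each, and their part in the Irf7 values was not tested.

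Irf3 (chromosome 7, 44997648 to 45002848, plus strand) had 76.4, 80.1 and 81.6 CPM with P7 platelets, 86.2, 80.4 and 73.7 with adult platelets, and 75.9, 76.0 and 74.8 in control. The 3 P7 libraries stood just above the control libraries, and the adult libraries spanned both groups. No comparison of Irf3 passed the test, with log2 fold changes of 0.07 ± 0.06 for P7 platelets against control (adjusted p = 0.34, edgeR) and 0.08 ± 0.06 for adult platelets against control (adjusted p = 0.338). For P7 platelets against control, the value was -0.031 (adjusted p = 0.669) under upper-quartile scaling, and it was 0.10 and passed (adjusted p = 0.0262) without the 4 libraries high in Igkc. For P7 against adult platelets the 95% interval ran from -0.15 to 0.12.

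Within a library, the ratio of Irf7 to Irf3 counts does not depend on scaling between libraries. It was 1.43, 1.98 and 2.22 with P7 platelets, 0.257, 0.302 and 0.262 with adult platelets, and 0.328, 0.335 and 0.388 in control. Exon length here joins all annotated exons of a gene. For Irf7 it is 3776 bases, its whole gene span, so levels of different genes compare only roughly. Per kilobase of exon the ratio averaged 1.71 ± 0.371 with P7 platelets, 0.249 ± 0.0226 with adult platelets and 0.319 ± 0.0300 in control (SD, n = 3 each). Irf7 thus stood above Irf3 per kilobase in P7 libraries and below it in the others, and the adult ratios lay below the control ratios without overlap.

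**Figure D2:**
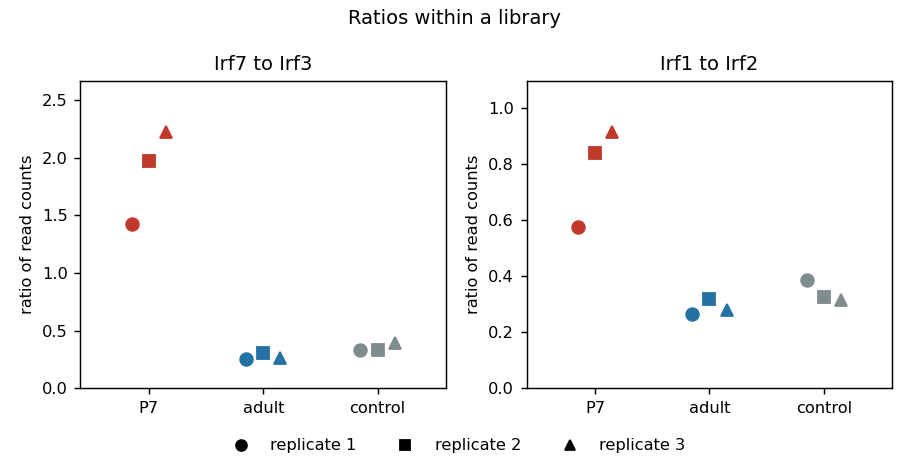
Ratio of counts within each library (vertical axis, no unit) for Irf7 to Irf3 and for Irf1 to Irf2, with P7 platelets left, adult platelets in the middle and control right; symbols are libraries by replicate. The Irf7 to Irf3 ratio is 1.43 to 2.22 in P7 libraries and 0.257 to 0.388 in the other 6.

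IRF1, a short-lived activator induced by interferons, and IRF2, its stable counterpart, diverged with P7 platelets. Irf1 (chromosome 11, 53770014 to 53778374, plus strand) had 93.3, 132 and 149.8 CPM with P7 platelets, 44.6, 57.0 and 47.3 with adult platelets, and 65.6, 58.2 and 59.3 in control. P7 libraries were the highest and adult libraries the lowest, with no overlap between any groups. The log2 fold change was 1.03 ± 0.16 for P7 platelets against control (adjusted p = 0.000428, edgeR) and 1.33 ± 0.16 against adult platelets (adjusted p = 0.000334). Adult platelets against control gave -0.30 ± 0.16 (adjusted p = 0.2), and -0.041 (adjusted p = 0.699) without the 4 libraries high in Igkc, which leaves 1 adult library assumed to vary like the others.

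Irf2 (chromosome 8, 46739732 to 46847458, plus strand) had 162, 157 and 164 CPM with P7 platelets, 169, 180.0 and 171 with adult platelets, and 169.5, 179.5 and 188 in control. P7 libraries were the lowest, and adult and control libraries overlapped. The fall with P7 platelets against control was slight, at -0.15 ± 0.05 (adjusted p = 0.0305, edgeR). It missed the threshold without any 1 of the 3 P7 libraries or without control replicate 2 or 3 (adjusted p from 0.0577 to 0.12) and without a filter on low counts (0.0633). P7 against adult platelets gave -0.10 ± 0.05 (adjusted p = 0.149), which passed under upper-quartile scaling (0.0169) and without the 4 libraries high in Igkc (0.0154). Adult platelets against control gave -0.05 ± 0.05 (adjusted p = 0.535).

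The ratio of Irf1 to Irf2 counts was 0.576, 0.841 and 0.914 with P7 platelets, 0.264, 0.317 and 0.277 with adult platelets, and 0.387, 0.324 and 0.315 in control. The P7 libraries stood apart, and the adult and control libraries overlapped narrowly. Per kilobase of exon the ratio averaged 1.45 ± 0.331 with P7 platelets, 0.532 ± 0.0506 with adult platelets and 0.637 ± 0.0729 in control (SD, n = 3 each).

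IRF5, a factor of Toll-like receptor signalling in myeloid cells, was the most abundant of the 9 and was higher with both kinds of platelets. Irf5 (chromosome 6, 29526625 to 29541871, plus strand) had 681, 759.8 and 764 CPM with P7 platelets, 657, 643 and 585 with adult platelets, and 527, 542 and 545 in control. The 3 groups did not overlap, with adult libraries between the others. The log2 fold change was 0.45 ± 0.06 for P7 platelets against control (adjusted p = 0.000274, edgeR), 0.22 ± 0.06 for adult platelets against control (adjusted p = 0.0314) and 0.23 ± 0.06 for P7 against adult platelets (adjusted p = 0.0205). The adult call was lost without adult replicate 1 or 2 or any 1 control library (adjusted p from 0.0733 to 0.0917) and without a filter (0.0597). The P7 against adult call was lost without P7 replicate 2 or 3 or adult replicate 3 (0.0639 to 0.082), under upper-quartile scaling (0.0706), without a filter (0.0612) and with only these groups in the fit (0.0613). Irf5 shares 411 bases (14.1% of its exon length) with Tnpo3 on the opposite strand. The libraries mark strand, but the strand setting of the counting is not given, so some reads of that stretch could be from Tnpo3.

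Irf8 (chromosome 8, 120736358 to 120756694, plus strand) had 206, 175 and 178 CPM with P7 platelets, 220.2, 170.2 and 159 with adult platelets, and 162, 160.5 and 148 in control. P7 libraries stood above control libraries, and adult libraries overlapped with both. No comparison was called, at 0.25 ± 0.12 for P7 platelets against control (adjusted p = 0.0911, edgeR, 95% interval -0.01 to 0.52), 0.23 ± 0.12 for adult platelets against control (adjusted p = 0.188) and 0.03 ± 0.12 for P7 against adult platelets (adjusted p = 0.879, 95% interval -0.24 to 0.29). Replicate 1 was the highest of its group for Irf8 in all 3 groups. Without the 4 libraries high in Igkc, which leaves 1 adult library assumed to vary like the others, P7 platelets (adjusted p = 0.00183) and adult platelets (0.0468) both passed against control. In all, P7 platelets against control passed in 4 of 20 alternative settings, among them without adult replicate 1 (0.0159) and with only these groups in the fit (0.0177). The 7 markers of conventional dendritic cells, which also express Irf8, made up 0.00293 to 0.00413% of counts with P7 platelets, 0.00429 to 0.00767% with adult platelets and 0.00613 to 0.00791% in control, with Xcr1 at 0 in 1 adult and 1 control library. Single markers of this list went both ways. Flt3 had 14.7 to 19.5 unscaled CPM with P7 platelets and 29.4 to 35.4 in control, and Snx22 had 0.566 to 0.846 with P7 platelets and 0.0283 to 0.137 in control. The part of these markers' cells in the Irf8 values was not tested.

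Stat3 (chromosome 11, 100885098 to 100939540, minus strand) had 299, 413 and 407 CPM with P7 platelets, 329.8, 419.9 and 431 with adult platelets, and 467, 558 and 571 in control. Every library with platelets stood below every control library, while both kinds of platelets overlapped, and replicate 1 was the lowest of each group. The fall with P7 platelets against control was -0.51 ± 0.15 (SE, adjusted p = 0.013, edgeR). Adult platelets against control gave a similar -0.44 ± 0.15 that just missed the threshold (adjusted p = 0.0536) and passed in 9 of 20 alternative settings (adjusted p from 1.79e-05 to 0.156), among them the fits without P7 replicate 1 (0.0228) and without control replicate 1 (0.0455). Another of these settings was the fit without the 4 libraries high in Igkc, which leaves 1 adult library assumed to vary like the others. P7 against adult platelets gave -0.08 ± 0.15 (adjusted p = 0.709, edgeR), with a 95% interval from -0.40 to 0.25.

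**Figure D3:**
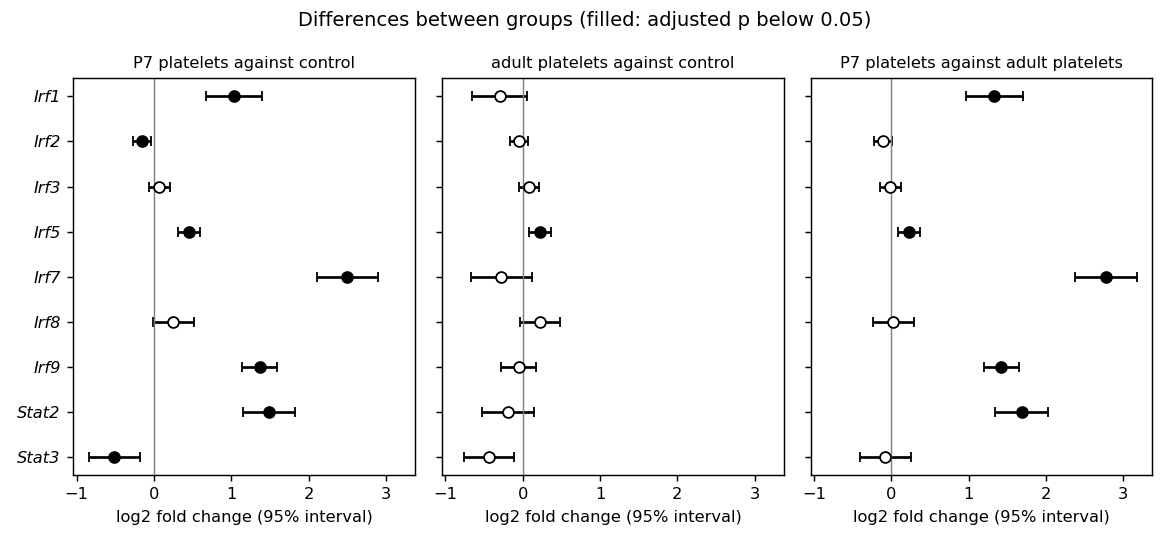
Log2 fold changes (horizontal axes) with 95% intervals of the 9 genes (rows), in panels for P7 platelets against control, adult platelets against control and P7 against adult platelets, from 1 edgeR fit to all 9 libraries; filled points passed an adjusted p below 0.05. Irf7 has the largest values, 2.50 against control and 2.77 against adult platelets, and Stat3 lies below 0 with both kinds of platelets against control.

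Levels of different genes were set side by side as CPM per kilobase of all annotated exons joined. The scale is rough, because transcripts can be shorter than that length, and the orders below hold on this scale only. Irf5 led in every group, at 253 ± 16.1 with P7 platelets, 216 ± 13.2 with adult platelets and 185 ± 3.38 in control (SD, n = 3 each). Irf7 was the lowest of the 9 with adult platelets (5.80 ± 0.666) and in control (7.01 ± 0.596), but had the second highest mean with P7 platelets (39.6 ± 9.79). That place was shared with Stat3, which lay above Irf7 in P7 replicates 1 (31.4 against 28.9) and 2 (43.4 against 41.9) and below it in replicate 3 (42.7 against 48.1). In control the order was Irf5, Stat3, Irf2, Irf8, Irf3, Irf1, Irf9, Stat2 and Irf7, and only Irf8 and Irf3 overlapped among neighbours. With adult platelets it was Irf5, Stat3, Irf8, Irf2, Irf3, Irf9, Irf1, Stat2 and Irf7, with overlap between Irf8 and Irf2, Irf2 and Irf3, and Irf9 and Irf1. With P7 platelets it was Irf5, Irf7, Stat3, Irf9, Stat2, Irf1, Irf8, Irf3 and Irf2, where each of the neighbours from Irf7 to Irf8 overlapped. Stat3 averaged 39.2 ± 6.72 there, 41.3 ± 5.82 with adult platelets and 55.9 ± 5.95 in control.

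**Figure D4:**
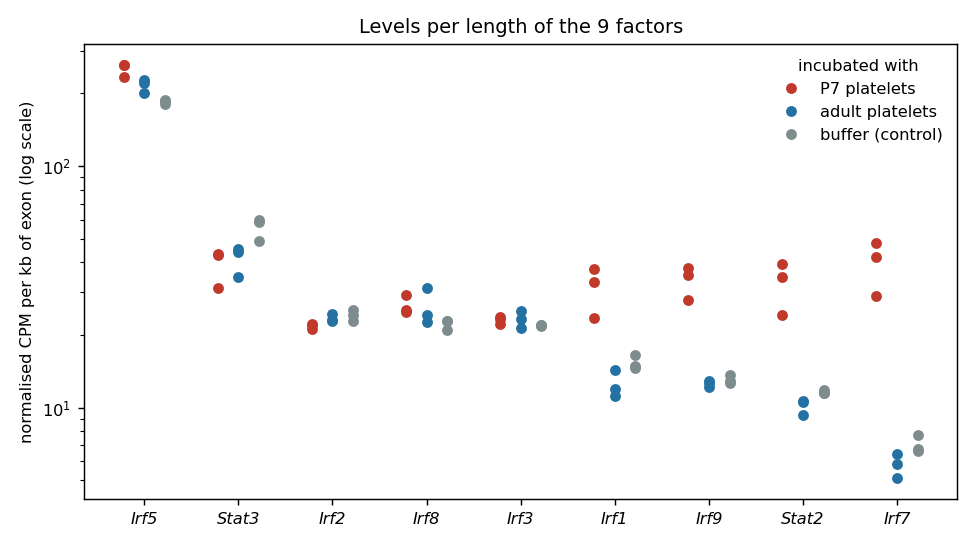
Normalised CPM per kilobase of exon (log axis) of the 9 genes, ordered by their control level; each point is a library, with 3 libraries per group, P7 platelets left, adult platelets in the middle and control right. Irf5 is the highest in every group, and Irf7 is last with adult platelets (mean 5.80) and in control (mean 7.01) and close to Stat3 with P7 platelets (mean 39.6 for Irf7 and 39.2 for Stat3).

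Over the 9 libraries the log2 levels of Irf7, Irf9, Stat2 and Irf1 moved together, with Pearson r of 0.995 for Irf7 and Stat2, 0.993 for Irf7 and Irf9, 0.992 for Irf9 and Stat2, and 0.969 for Irf1 and Irf7. These values describe 9 libraries in 3 groups and share the gap between P7 libraries and the rest. Irf7 and Irf3 had r = 0.233, and Irf8 and Stat3 had r = -0.910. Within the P7 group, replicate 1 was the lowest for 7 of the 9 genes and replicate 3 the highest for 7, so the spread there was shared between genes.

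Among 9251 tested genes with a mean log2 CPM of at least 2, those most like Irf7 over the 9 libraries were Mx2 (r = 0.999), Phf11b (0.998) and Oasl2 (0.997). Mx2 encodes an interferon-induced GTPase and Oasl2 a 2'-5' oligoadenylate synthetase-like protein. Most like Irf9 were Irgm1 (0.998), Irgm2 (0.998) and Ddx58 (0.997), most like Stat2 were Tor3a (0.997), Parp9 (0.995) and Irgm2 (0.995), and most like Irf1 were Ifi209 (0.995), Dtx3l (0.993) and Samd9l (0.992). Irgm1 and Irgm2 are immunity-related GTPases, and Ddx58 is the RNA sensor RIG-I. Irf5 was nearest to Uba1 (0.989), Pdcd10 (0.987) and Elp5 (0.987), and Stat3 to Igf1r (0.987), Ints6 (0.979) and Gpd2 (0.973). Igf1r, the receptor of insulin-like growth factor, had log2 fold changes of -0.69 with P7 platelets and -0.61 with adult platelets against control. The nearest genes of Irf8 (Rps6kb2, 0.975), Irf2 (Gatad2b, 0.950) and Irf3 (Cnot3, 0.949) followed less closely.

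The genes around these factors were taken as 6 lists, and every count below is read against the shares of all tested genes given above. The lists were chosen with earlier results of these data known, so the counts describe them and are not a test of them. The tested genes were 11 receptors and Janus kinases, 18 adaptors and upstream kinases, 13 inhibitors, 11 partners, 20 interferon-stimulated genes and 10 STAT3 targets. Socs3 is in both the inhibitors and the STAT3 targets and counts once in the totals. In all, 66 genes of the lists were called with P7 platelets against control, 62 with P7 against adult platelets and 19 with adult platelets against control. The last count was 12 without control replicate 2 or without control replicate 3. Over all genes, adult platelets against control then gave 2031 calls of 13935 tested without replicate 2 and 2207 of 13914 without replicate 3. The main fit gave 3617 of 13707. The 20 interferon-stimulated genes were all higher with P7 platelets than in control, with a median log2 fold change of 3.20, and all higher than with adult platelets, with a median of 3.09. Among them Rsad2, which encodes viperin, had a log2 fold change of 5.94 and Isg15, a ubiquitin-like modifier, 5.18 with P7 platelets against control. With adult platelets 1 of the 20 rose, 2 fell and 17 did not pass the test, and the median was -0.02. Ifit2, which binds viral RNA, averaged 49.0 CPM with P7 platelets, 8.15 with adult platelets and 2.75 in control. Cmpk2, a mitochondrial nucleotide kinase, averaged 45.1 CPM with P7 platelets, 6.53 with adult platelets and 12.6 in control, and its log2 fold change was 1.83 with P7 platelets and -0.95 with adult platelets, both called.

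Of 11 cytokine receptors and Janus kinases, 6 rose, 3 fell and 2 did not pass with P7 platelets against control, and 4 rose and 2 fell with adult platelets. Ifngr1, the ligand-binding chain of the interferon gamma receptor, averaged 270 ± 7.86 CPM with P7 platelets, 438 ± 31.7 with adult platelets and 716 ± 10.2 in control (SD, n = 3 each). Its log2 fold change against control was -1.41 ± 0.06 with P7 platelets and -0.71 ± 0.06 with adult platelets, while its partner chain Ifngr2 rose with both, by 0.53 with P7 platelets and 0.31 with adult platelets. Il6ra, the IL-6 receptor upstream of STAT3, fell with P7 platelets (-1.03) and was at -0.22 with adult platelets (adjusted p = 0.0997, edgeR). Ifnar1, a chain of the type I interferon receptor, averaged 404 CPM with P7 platelets, 375 with adult platelets and 268 in control and rose with both.

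Of 18 adaptors, sensors and kinases upstream of IRF3, IRF5 and IRF7, 8 rose and 4 fell with P7 platelets against control, and 1 rose and 1 fell with adult platelets. The RNA sensors Ddx58 (92.1 CPM with P7 platelets, 12.0 with adult platelets and 12.1 in control) and Ifih1 (91.4 CPM with P7 platelets, 16.9 with adult platelets and 18.5 in control) rose with P7 platelets. Their adaptor Mavs averaged 16.6 CPM with P7 platelets, 19.6 with adult platelets and 25.7 in control and fell with both kinds of platelets. Traf3, a ubiquitin ligase of the same route, averaged 168 CPM with P7 platelets, 137 with adult platelets and 105 in control and rose with both.

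Of 13 inhibitors of JAK-STAT signalling, 9 rose and 1 fell with P7 platelets against control, and 0 rose and 2 fell with adult platelets. Usp18, which blocks the type I interferon receptor, averaged 48.7 ± 14.5 CPM with P7 platelets, 1.85 with adult platelets and 1.52 in control, a log2 fold change of 4.997 ± 0.26 for P7 platelets. Socs3, an inhibitor of IL-6 signalling that STAT3 induces, averaged 187 CPM with P7 platelets, 36.1 with adult platelets and 25.04 in control (2.90 with P7 platelets, and 0.53 with adult platelets at an adjusted p of 0.126, edgeR). Pias3, which binds STAT3, fell with both kinds of platelets (-0.77 with P7 and -0.42 with adult platelets). Ptpn6, the phosphatase SHP-1, averaged 1634 CPM with P7 platelets, 885 with adult platelets and 1157 in control, higher than control with P7 platelets and lower with adult platelets, both called.

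Of the 11 tested of 12 partners and co-regulators of IRF proteins, 6 rose and 2 fell with P7 platelets against control, and 3 rose and 0 fell with adult platelets. Irf2bp2, a corepressor that binds IRF2, averaged 207 CPM with P7 platelets, 201 with adult platelets and 113 in control. Spi1, which encodes PU.1, the partner of IRF8, rose with P7 platelets by 0.71 and Cebpb by 0.92 on the log2 scale. With adult platelets Spi1 also rose, by 0.24 (adjusted p = 0.0365, edgeR), and Cebpb was at 0.17 and not called (adjusted p = 0.266). Of the 10 tested of 11 STAT3 target genes, 8 rose and 0 fell with P7 platelets against control (median 0.84), and 3 rose and 0 fell with adult platelets (median 0.17), while Stat3 itself was lower. Besides Socs3, which is in both lists, Junb, an AP-1 subunit, had 0.999 and Cebpd 0.81 with P7 platelets against control. With adult platelets Junb also rose, by 0.39 (adjusted p = 0.0126, edgeR), and Cebpd was at 0.13 and not called (adjusted p = 0.255). Myc was higher with both, at 5.05 CPM with P7 platelets, 5.18 with adult platelets and 2.14 in control.

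**Figure D5:**
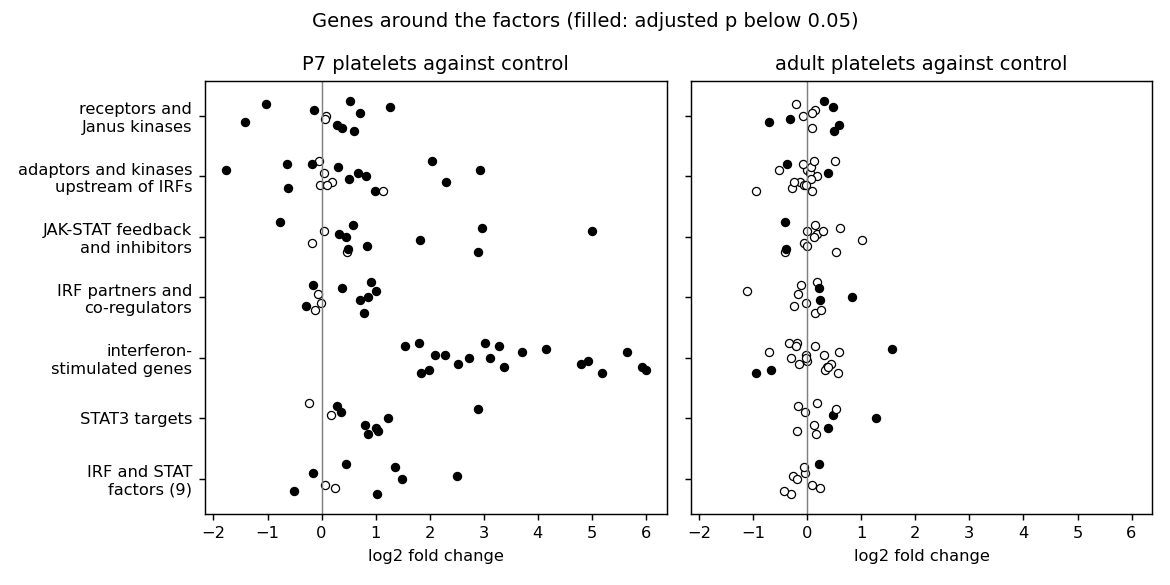
Log2 fold changes (horizontal axes) of the genes of the 6 lists and of the 9 factors (rows, 1 point per gene), left for P7 platelets against control and right for adult platelets against control; filled points passed an adjusted p below 0.05. The 20 interferon-stimulated genes have a median of 3.20 with P7 platelets and -0.02 with adult platelets, and the medians of the other lists lie between 0.25 and 0.84 with P7 platelets.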

How the data were processed

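Per the labels' protocols, polyadenylated RNA (100 ng) went into stranded libraries read as single ends of 75 nt, after DNase treatment of 600 ng RNA. The deposited values are the authors' raw counts of reads per gene symbol, 1 file per library. Tools listed in the submitters' processing notes are Salmon 1.3.0, featureCounts of Subread 2.0.1, STAR 2.7.6a and fastp 0.20.1. What each was used for, and the build, annotation and strandedness of counting, were not given in the sources used here. Gene positions and exon lengths come from GENCODE M21 (GRCm38).

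Counts were fitted with edgeR 4.0.16 (R 4.3.3) over all 9 libraries with 1 mean per group, TMM scaling, filterByExpr (minimum count 10) and the quasi-likelihood test. Calls use a Benjamini-Hochberg adjusted p below 0.05 over 13707 genes, and intervals are 95%. Normalised CPM are counts per 1000000 of the TMM-scaled library size. The fit was also run on simulated counts with the same mean in all groups apart from planted changes. Few genes changed there, unlike in these data, and the outcome is not given here. Alternatives included DESeq2 1.42.0, limma 3.58.1 (voom), other scalings and filters, and leaving out each library. All 9 factors are named. Of each list, up to 3 genes with the smallest p with P7 platelets against control and up to 2 with adult platelets are eligible for naming, besides the 3 genes most like each factor. The factors and lists were chosen with earlier results of these data known. Replicate numbers did not meet the criterion for pairing, and no libraries agreed within sampling noise.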

Additional observations from a re-analysis of the deposited data

Results flagged for a closer look

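For Irf1, Irf7 and Stat2 every P7 platelet library stood above every control library and every adult platelet library stood below every control library. The tested difference between P7 and adult platelets was 1.33 for Irf1, 2.77 for Irf7 and 1.69 for Stat2 on the log2 scale (edgeR, adjusted p of 0.000334, 1.45e-05 and 7.73e-05 in that order). The lower level with adult platelets did not pass the test for any of the 3 genes (adjusted p of 0.2 for Irf1, 0.278 for Irf7 and 0.373 for Stat2), and without the 4 libraries high in Igkc the difference was -0.041 for Irf1, -0.16 for Irf7 and -0.13 for Stat2 on the log2 scale. Libraries failed to overlap downwards in that comparison for 20.9% of all tested genes.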

How the results depend on the processing

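Irf1, Irf5, Irf7, Irf9, Stat2 and Stat3 kept their call and direction for P7 platelets against control in all 20 alternatives, as did Irf1, Irf7, Irf9 and Stat2 for P7 against adult platelets. For adult platelets against control, the number of the 9 genes called was 2 under upper-quartile scaling, the DESeq2 Wald test, the replicate block, a fit of only the groups compared and a term for the libraries high in Igkc, and 3 without those libraries, which was chosen after seeing the data. It ranged from 0 to 2 when libraries were left out in turn, against 1 reported. The genes called in the 6 lists were 42 without the libraries high in Igkc and ranged from 12 to 22 with 1 library left out, against 19. The fit without the libraries high in Igkc leaves 1 adult library assumed to vary like the others. That fit also called a larger share of all tested genes for adult platelets against control. Its counts are therefore not read as particular to the lists or the 9 genes. Leaving out a library gave 6 to 8 of the 9 genes for P7 platelets against control and 4 to 5 for P7 against adult platelets. Over all genes it gave 7101 calls of 13935 tested to 8482 of 13998 for P7 platelets against control. For P7 against adult platelets it gave 3978 of 13948 to 5540 of 13980. Changes of sign occurred only in values near 0 that were not called: Irf3 for P7 platelets against control (-0.031 under upper-quartile scaling), Irf8 for P7 against adult platelets (-0.045 under the same), Irf9 for adult platelets against control (0.016) and Irf3 for P7 against adult platelets (0.0072), both without the libraries high in Igkc. With 1 library left out, P7 against adult platelets ranged from -0.0703 to 0.0421 for Irf3, -0.0656 to 0.18 for Irf8 and -0.19 to 0.0599 for Stat3. Upper-quartile scaling moved the median of all tested genes to -0.12 for P7 platelets against control, where it was -0.01. The cause of these changes was not tested. The replicate numbers are not known to pair libraries. Same-numbered libraries of different groups deviated with r from -0.08 to 0.58, with 7 of 9 pairs over 0.1. Libraries of different groups and numbers had r from -0.56 to 0.43, with 5 of 18 pairs over 0.1. Of the 9 libraries, 5 correlated best with a library of their own number. With the replicate block, 8 of the 9 genes were called for P7 platelets against control, 2 for adult platelets against control and 5 for P7 against adult platelets, and over all genes 8565, 4228 and 5965 in that order, where 8111, 3617 and 5424 were called without it. The block added Irf8 for P7 platelets against control (0.25, adjusted p = 0.02) and Stat3 for adult platelets against control (-0.44, adjusted p = 0.000994).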

Other observations

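The remaining cell type lists had these shares of counts. The 7 neutrophil markers made up 0.0116 to 0.0128% with P7 platelets, 0.0146 to 0.0312% with adult platelets and 0.0152 to 0.0167% in control. The 7 markers of B and plasma cells made up 0.0262 to 0.0911% with P7 platelets, 0.0253 to 0.115% with adult platelets and 0.0349 to 0.112% in control. The 7 markers of T and NK cells stayed at or below 0.000109% in every library. The 37 mitochondrially encoded transcripts made up 2.33 to 2.42% with P7 platelets, 2.05 to 2.28% with adult platelets and 1.17 to 1.62% in control.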
